A study of Mus musculus with 22 samples.

Results

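The RNA 5′ ends described here lie at noncoding genes of mouse primary motor cortex. They were chosen by the class that the deposited annotation gives to each region of 5′ ends: first exon, upstream or other exon of a noncoding gene. These classes hold 1410 of the 112460 regions in the count table, called features below, and the features carry the names of 908 noncoding genes. Reads were found in 1114 of the features and at 758 of the genes, while 150 genes had no read in any biopsy. Altogether they took 561047 of 20151467 endogenous reads, or 2.78%.

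The samples were biopsies of M1 cortex from male C57BL/6 mice aged 16 to 20 weeks. The 5 BERKO mice lack estrogen receptor beta, the product of Esr2, and the 6 wild type (WT) mice are their age-matched counterparts. Each mouse gave a right and a left biopsy, taken by needle puncture, so there were 5 right and 5 left BERKO biopsies and 6 right and 6 left WT biopsies. From each biopsy, 10 ng of total RNA was read by STRT, a method that marks the 5′ end of an RNA during reverse transcription. It therefore counts RNA 5′ ends, which need not all be transcript starts. BERKO replicate 1 was not analysed here. A biopsy holds all cell types of the tissue, so fewer cells of a type and less RNA per cell cannot be told apart.

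Noncoding genes make RNAs that are used without being translated. Long noncoding RNAs such as Malat1 stay in the nucleus, others such as Meg3 come from imprinted clusters read from one parental chromosome, and small nucleolar RNA host genes carry in their introns the guides that modify ribosomal RNA. Processed pseudogenes, which arose when an mRNA was copied back into the genome, are also annotated as noncoding, and their reads can be hard to separate from those of the parent gene.

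Biopsies held 249751 to 2018833 reads, summed over 3 sequencing lanes in 21 biopsies and 1 lane in the left biopsy of BERKO replicate 5. Well codes in the table headers put the right WT biopsies in plate row A, the left WT biopsies in rows B and C, the right BERKO biopsies in row D and the left BERKO biopsies in rows E and F, so the effects of plate row, genotype and side cannot be told apart. The Esr2 gene had 10 reads in 2 BERKO biopsies and 3 reads in 1 WT biopsy, too few to check the genotype, and a 5′ end count need not touch the deleted part. Summed markers of cortical excitatory neurons were at 2515 to 5968 CPM (counts scaled to the library total) in BERKO biopsies and 1988 to 4872 CPM in WT biopsies, and oligodendrocyte markers at 5643 to 20434 CPM in BERKO biopsies and 2017 to 17370 CPM in WT biopsies. All 10 excitatory neuron markers were detected.

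Among the WT libraries, the right biopsies of WT replicates 1 and 3 stood apart from the other 20 at noncoding genes. They had reads at 552 and 576 noncoding genes, against 256 to 413 in the others, and at an equal depth of 248354 reads they would have had 396 and 434, against 232 to 303. Reads in introns made up 2.45% and 3.96% of their endogenous reads, against 1.63% to 2.07% in the others, and reads outside annotated genes 5.32% and 6.51%, against 3.09% to 4.78%. Meg3 stood at 3459 and 3873 CPM in these 2 libraries and at 113 to 387 CPM in the other 20. Not every noncoding gene was higher there: the pseudogene Gm1821 was at 947 and 753 CPM, against 1156 to 2047 CPM in the others. Cell type markers moved with this split in part. Summed over 8 markers each, of which the pericyte marker Abcc9 was at 0 in every library, pericytes were at 205 and 236 CPM in the 2 libraries, against 304 to 915 CPM in the others, and interneurons at 1426 and 1393 CPM, against 1433 to 2547 CPM. The right biopsy of WT replicate 1 was also the lowest library for excitatory neurons (1988 CPM), oligodendrocytes (2017 CPM) and microglia (644 CPM) and the highest for choroid plexus (482 CPM), where WT replicate 3 lay within the range of the others. Their part in the split was not tested, and what makes the 2 libraries differ was not tested. Below, values without them are given for the genes whose results rest on them most.

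The first sequences shown are those that the genotype results turn on. Gm15421 is a pseudogene on chromosome 5 whose transcript matches that of Rpl22l1, a paralog of ribosomal protein L22 on chromosome 3, over 395 bases with 2 mismatches. A stretch of 90 bases of each transcript (GENCODE, GRCm38; Gm15421 at chr5:22528508-22528597, minus strand, transcript bases 123 to 212; Rpl22l1 transcript bases 192 to 281) is printed 5′ to 3′ with the mismatched base in capitals.
Gm15421: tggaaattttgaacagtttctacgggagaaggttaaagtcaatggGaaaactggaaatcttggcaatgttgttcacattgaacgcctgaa
Rpl22l1: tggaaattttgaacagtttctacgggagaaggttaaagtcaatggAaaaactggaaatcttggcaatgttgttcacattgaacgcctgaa
Counted from 1 at the 5′ end of the Gm15421 transcript, with the Gm15421 base first, the mismatches are G168A and C388T. Both fall in the Rpl22l1 coding sequence.

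The start sites of the small nucleolar RNA host genes are shown next, since these genes form the largest of the lists tested. Several are known to begin at a run of pyrimidines, a start that links an RNA to growth signalling. Of the 7 host promoters with such a run, 5 are shown. Each line holds 30 bases before to 40 bases after the annotated start (RefSeq, GRCm38.p6), with runs matching CTTTT or CTTTC, or else CCTTT or CTCTT, near the start in capitals.
Snhg8;Snora24 (chr3:123508297-123508366, minus strand): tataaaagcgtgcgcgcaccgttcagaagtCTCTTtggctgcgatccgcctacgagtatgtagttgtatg
Snhg12 (chr4:132308648-132308717, plus strand): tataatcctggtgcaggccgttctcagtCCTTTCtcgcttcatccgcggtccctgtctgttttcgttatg
Gas5, second start (chr1:161035136-161035205, plus strand): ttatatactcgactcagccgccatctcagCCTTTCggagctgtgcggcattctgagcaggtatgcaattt
Snhg5 (chr9:88522858-88522927, minus strand): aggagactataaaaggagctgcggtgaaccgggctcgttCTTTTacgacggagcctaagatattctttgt
Snhg10 (chr12:105032240-105032309, minus strand): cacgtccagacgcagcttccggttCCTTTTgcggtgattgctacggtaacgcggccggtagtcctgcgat
On the RNA strand, from 10 bases before to 20 bases after the start, such a run was present in 7 of 15 promoters of 13 host genes (46.7%), in 98 of 702 promoters of all noncoding genes (14%) and in 3563 of 32851 RefSeq mouse promoters (10.8%). The sequence TATAAA on either strand, in the 300 bases from 250 before to 50 after the start, was in 6 of the 15 host promoters, 8.83% of the noncoding promoters and 13.6% of all promoters. GGGCGG was in 73.3% of the host promoters, 52.4% of the noncoding and 35.7% of all promoters, while CCAAT was about as common in noncoding promoters (37.9%) as in all (37.4%). The full palindromic estrogen response element was in 0 of the 702 noncoding promoters and in 18 of all 32851 (0.0548%). These letter matches are descriptions of the windows only, and the first 3 motifs were searched on both strands and may overlap.

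Most of the noncoding reads came from a handful of features. First exons held 466883 reads (83.2% of the noncoding reads) in 821 features, upstream regions 79249 reads (14.1%) in 309 features and other exons 14915 reads (2.66%) in 280 features. Of the 758 genes with reads, 573 had them in a single feature and 185 in 2 or more, and in 60 of the 185 the leading feature held over 90% of the gene's reads. Reads were seen in all 22 biopsies for 91 genes and in 1 biopsy only for 73. By RefSeq gene type, 646 long noncoding RNA genes held 27.6% of the reads, 65 transcribed pseudogenes 12.5% and 88 microRNA genes 1.31%. A further 80 genes that the deposited annotation calls noncoding are listed as protein coding in RefSeq, and they held 3.87%.

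The most abundant was Rn45s, the precursor of the ribosomal RNAs, with 304250 reads or 54.2% of all noncoding reads, of which 99.7% fell on a single first-exon feature (mm9, chromosome 17, position 39983807, plus strand). This feature lay 3863 bases downstream of the first Rn45s feature, which held 615 reads. Most of these 5′ ends thus lay within the first exon rather than at its beginning, and what they mark was not tested. Over all Rn45s features, BERKO mice had 15085, 15792, 22058, 20534 and 18703 CPM, and WT mice had a lowest value of 11913, a median of 14415 and a highest of 21619 CPM. The groups overlapped, and the difference of 0.26 ± 0.13 (log2 BERKO over WT ± SE) had an adjusted p of 0.523 (edgeR quasi-likelihood test, Benjamini-Hochberg over all gene rows). Malat1, a nuclear speckle RNA, followed at 1729 ± 268 CPM in BERKO mice and 1937 ± 1204 CPM in WT mice (SD, n = 5 and n = 6). Its WT spread came from replicate 3, at 4327 CPM, where the other WT mice had 1023 to 1721 CPM. The difference turned to 0.20 ± 0.15 without the right biopsies of WT replicates 1 and 3, from -0.16 ± 0.35 with them. Of the Malat1 reads, 98.7% lay on 1 feature classed as upstream (mm9, chromosome 19, position 5802672, minus strand).

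**Figure D1:**
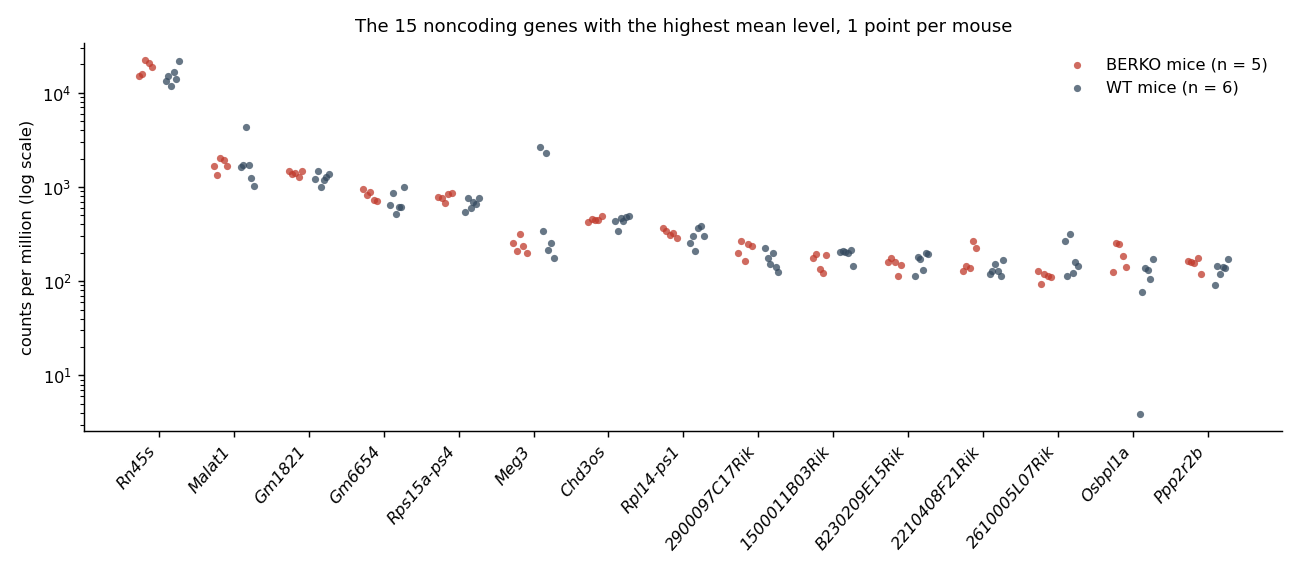
Level of the 15 noncoding genes with the highest mean, in CPM on a log axis, with 1 point per mouse for 5 BERKO mice (red, left) and 6 WT mice (dark, right). Rn45s lies far above the other genes, Meg3 of WT replicates 1 and 3 lies far above all other mice at 2638 and 2310 CPM, and Osbpl1a of WT replicate 1 lies far below at 3.93 CPM.

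Apart from Meg3, described below with the imprinted genes, the other genes of this rank were pseudogenes, antisense transcripts, unnamed clones and noncoding starts of coding loci. Chd3os, transcribed opposite the chromatin remodeller Chd3, had 454 ± 23.4 CPM in BERKO mice and 442 ± 56.9 CPM in WT mice. 2900097C17Rik had 222 ± 39.7 CPM in BERKO mice and 170 ± 37.9 CPM in WT mice (0.38 ± 0.17, adjusted p = 0.452). 2210408F21Rik had 181 ± 61.0 CPM in BERKO mice and 135 ± 20.2 CPM in WT mice (0.42 ± 0.19, adjusted p = 0.457). 1500011B03Rik had 164 ± 33.4 CPM in BERKO mice and 196 ± 25.8 CPM in WT mice, and B230209E15Rik had 151 ± 23.1 CPM in BERKO mice and 165 ± 34.1 CPM in WT mice. The noncoding starts of 2 coding loci were also among the top 15: Ppp2r2b, a phosphatase subunit, at 154 ± 21.6 CPM in BERKO mice and 135 ± 26.7 CPM in WT mice, and Osbpl1a, an oxysterol-binding protein, at 190 ± 58.3 CPM in BERKO mice and 105 ± 58.5 CPM in WT mice. None of these differences passed the test.

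Gm15421 and 4 abundant pseudogenes were near copies of coding genes. Among 187 tested noncoding genes with a GENCODE transcript, 13 matched a coding transcript of another locus at 95% identity or more over at least 100 bases and 50% of their length, and together they held 63837 reads (11.4% of the noncoding reads). Gm1821, a copy of the ubiquitin gene Ubb (98.5% identical over 685 bases), had 1406 ± 90.5 CPM in BERKO mice and 1252 ± 166 CPM in WT mice, and Ubb itself 542 ± 101 CPM in BERKO mice and 479 ± 63.7 CPM in WT mice. Gm6654, a copy of Rps26 (97.4% over 348 bases), had 820 ± 99.3 CPM in BERKO mice and 704 ± 182 CPM in WT mice, with Rps26 at 1063 ± 98.3 CPM in BERKO mice and 1091 ± 183 CPM in WT mice. Rps15a-ps4 (97.4% over 459 bases) had 784 ± 70.6 CPM in BERKO mice and 668 ± 85.7 CPM in WT mice, far more than its parent Rps15a at 37.9 ± 8.0 CPM in BERKO mice and 44 ± 6.4 CPM in WT mice. Rpl14-ps1 (98.9% over 656 bases) had 328 ± 31.6 CPM in BERKO mice and 304 ± 66.5 CPM in WT mice, and Rpl14 235 ± 19.4 CPM in BERKO mice and 226 ± 36.3 CPM in WT mice. Rps26, Rps15a and Rpl14 encode ribosomal proteins. Which copy a read was counted for when it matched both is not stated in the labels or headers, so the level of each of these pseudogenes is uncertain.

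The genotype comparison asks which noncoding transcripts differ in M1 cortex without estrogen receptor beta. Gm15421, the near copy of Rpl22l1, had the smallest p of the noncoding genes and missed the threshold at gene level by a narrow margin. BERKO mice had 3.85, 8.66, 6.19, 5.31 and 10.1 CPM, against a lowest of 17.7, a median of 28.1 and a highest of 41.5 CPM in WT mice. The groups did not overlap: the highest BERKO mouse lay below the lowest WT mouse. The log2 difference was -1.99 ± 0.40, with an adjusted p of 0.0502 in the edgeR test. It was -1.94 ± 0.43 (adjusted p = 0.119) without the right biopsies of WT replicates 1 and 3. Leaving out WT replicate 4 gave an adjusted p of 0.0302, and leaving out any other single mouse did not bring it under 0.05.

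At gene level, 210 of the 908 noncoding genes passed edgeR's default filter on low counts, and 0 of them passed an adjusted p of 0.05. Over all 9053 gene rows tested, 5 did, or 0.0552%. At an unadjusted p under 0.05 there were 30 noncoding genes, 5 higher and 25 lower in BERKO mice (10 higher and 10 lower when scaled to the spike-ins), which is 30 of 210 against 898 of 9053 rows in all (9.92%; 473 higher and 425 lower). DESeq2 made 0 calls and had 32 genes at an unadjusted p under 0.05. Its own filter kept only 29 noncoding genes for adjustment, so its 0 says nothing about the others. The share of all rows at this unadjusted cutoff was not counted for DESeq2 or for the spike-in scaling. In direction, 87 noncoding genes had a positive and 123 a negative difference, against 4445 and 4608 over all rows. Some, such as 4632427E13Rik and Mir125b-1, passed the filter only with the right biopsies of WT replicates 1 and 3 included. Genes kept through WT libraries where they are high lean to a negative difference by that choice. The median log2 difference of the 210 noncoding genes was -0.14, against -0.01 over all rows. Without the right biopsies of WT replicates 1 and 3 the median was -0.04 over 171 noncoding genes, against 0.01 over all rows. At an unadjusted p under 0.05 there were then 13 of the 171, 4 higher and 9 lower, against 768 of 8454 rows in all. Scaled to the spike-ins, the median was 0.04 against 0.19 over all rows, so the sign of the noncoding median depends on the scaling while its place below that of all rows was the same under both. Gm15421 was the only tested noncoding gene whose 5 BERKO values all lay below the 6 WT values. Over all rows this held for 54 (0.596%), and for 66 (0.729%) all BERKO values lay above the WT values, none of them noncoding.

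**Figure D2:**
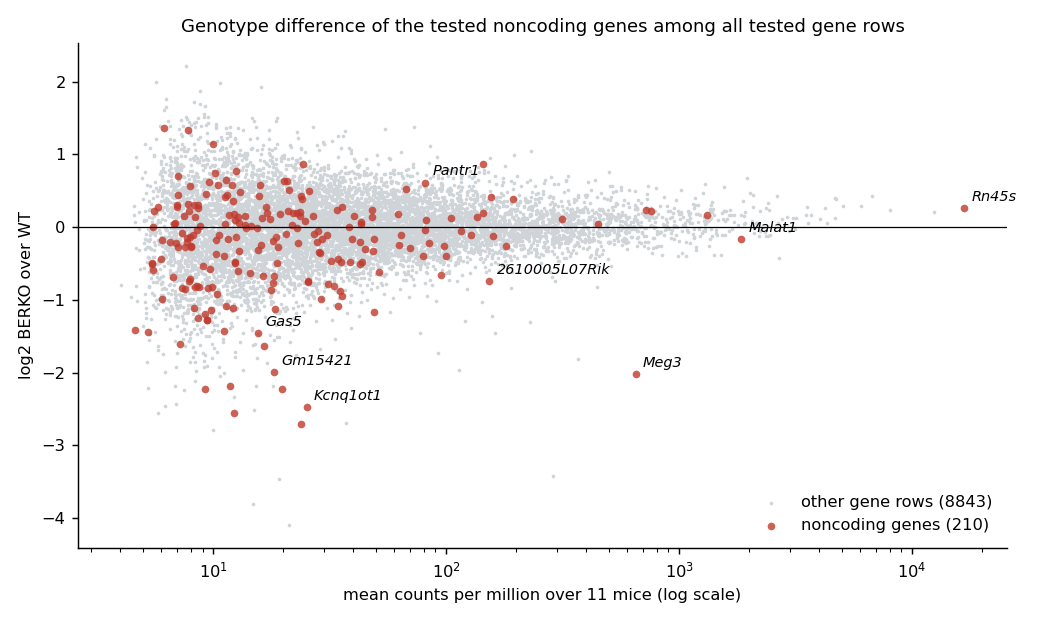
Log2 difference of BERKO over WT against the mean level in CPM over 11 mice (log axis) for 210 tested noncoding genes (red) and the other tested gene rows (grey). The noncoding genes spread around a median of -0.14, Gm15421 lies at -1.99, and Meg3 and Kcnq1ot1 lie at -2.02 and -2.48 over all libraries and at -0.14 and -0.79 without the right biopsies of WT replicates 1 and 3.

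Rpl22l1, the coding parent of Gm15421, is 1 of the 5 gene rows past the threshold. It had 1.66 ± 1.64 CPM in BERKO mice and 25.7 ± 8.21 CPM in WT mice (-3.80 ± 0.59, adjusted p = 0.00577). The parents of the other 4 pseudogenes described above did not pass the test, Ubb at an adjusted p of 0.680 among them. Given the 2 mismatches printed above, the extent to which the Gm15421 reads are Rpl22l1 reads was not tested.

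**Figure D3:**
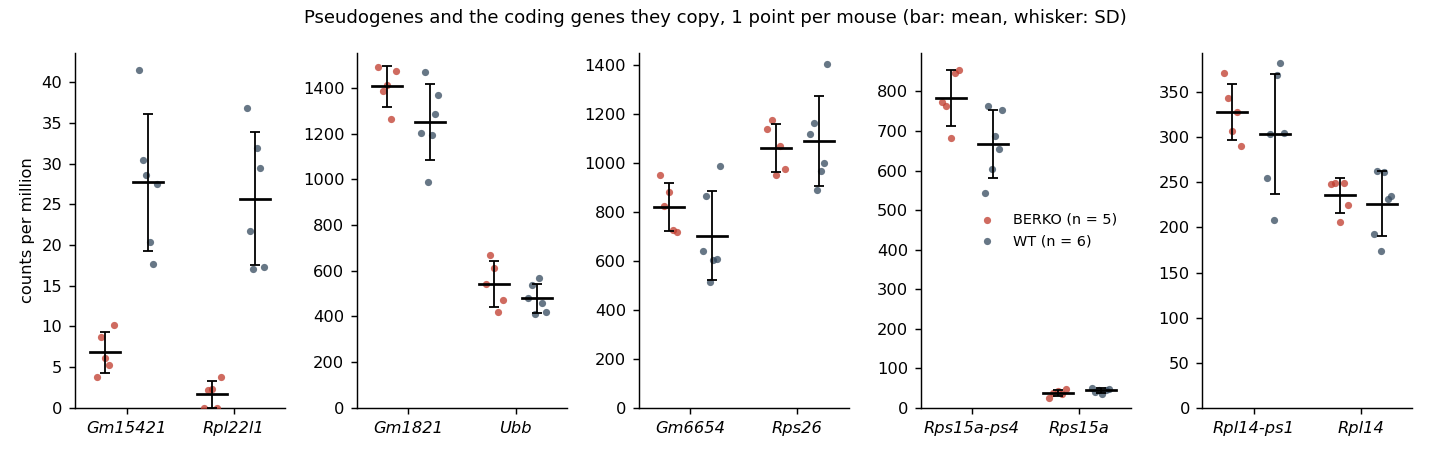
Level in CPM of 5 pseudogenes and the coding genes they copy, with 1 point per mouse, a bar for the mean and a whisker for the SD, for BERKO (red, n = 5) and WT (dark, n = 6). Gm15421 and Rpl22l1 are both lower in all 5 BERKO mice, and in the other 4 pairs the genotypes overlap.

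The genes that followed it in rank missed the threshold, each with a lower mean in BERKO mice. 2610005L07Rik, a well expressed clone of which 906 bases match Cdh11 at 95.1%, had 127, 93.8, 119, 113 and 110 CPM in BERKO mice, against a lowest of 112, a median of 152 and a highest of 316 CPM in WT mice (-0.74 ± 0.24, adjusted p = 0.316). The 2 highest WT mice were replicates 3 and 1, and without their right biopsies the difference was -0.38 ± 0.18. Cep83os, opposite the centrosomal gene Cep83, had 22.3, 24.5, 26.3, 21.3 and 22.2 CPM in BERKO mice, against a lowest of 23.4, a median of 42.0 and a highest of 55.1 CPM in WT mice (-0.81 ± 0.28, adjusted p = 0.332). Only 1 WT mouse lay within the BERKO range, and the difference without the 2 right biopsies was -0.64 ± 0.30. Brip1os had 23.6 ± 8.95 CPM in BERKO mice and 45.5 ± 19 CPM in WT mice (adjusted p = 0.324), and BC018473 had 19.2 ± 6.02 CPM in BERKO mice and 37.4 ± 17.0 CPM in WT mice (adjusted p = 0.348). AF357359, listed by RefSeq among the small nucleolar RNA genes, had 24 ± 9.98 CPM in BERKO mice and 44.2 ± 12.2 CPM in WT mice (-0.88 ± 0.31, adjusted p = 0.340), and the difference was -0.46 ± 0.35 without the 2 right biopsies. Its tested feature (mm9, chromosome 12, position 110888879, plus strand) lies between features of the imprinted gene Rian, described below. The results of AF357359 and Rian may therefore not be independent. Rps4l, a transcribed pseudogene related to ribosomal protein S4, had 72.4 ± 18.2 CPM in BERKO mice and 114 ± 41.5 CPM in WT mice (adjusted p = 0.344).

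For 4632427E13Rik and Mir125b-1 the WT values were split. 4632427E13Rik had 1.44 to 5.41 CPM in BERKO mice, against 30.7 CPM in each of WT replicates 1 and 3 and 2.75 to 7.70 CPM in the other 4 WT mice (-2.23 ± 0.67, adjusted p = 0.254). Mir125b-1 had 0 to 8.46 CPM in BERKO mice, against 31.8 and 40.1 CPM in the same 2 WT mice and 5.44 to 18.7 CPM in the others (-2.18 ± 0.71, adjusted p = 0.316). Without the right biopsies of these mice, both fell below the filter.

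Of the tested imprinted genes, Meg3 and Kcnq1ot1 showed the same split and Peg13 did not. Meg3 comes from the Dlk1-Dio3 cluster on chromosome 12, where it is read from the maternal chromosome. It had 257, 210, 318, 236 and 199 CPM in BERKO mice, against 2638, 338, 2310, 217, 253 and 177 CPM in WT replicates 1 to 6. Outside WT replicates 1 and 3 the genotypes overlapped, and the difference of -2.02 ± 0.86 (adjusted p = 0.484) became -0.14 ± 0.17 without their right biopsies. Kcnq1ot1, the antisense RNA of the Kcnq1 imprinted cluster, had 7.35 ± 5.78 CPM in BERKO mice and 40.1 ± 47.6 CPM in WT mice (-2.48 ± 1.02, adjusted p = 0.465), and -0.79 ± 0.64 without the 2 right biopsies. Rian, downstream of Meg3, had 40.2 ± 16.0 CPM in BERKO mice and 61.2 ± 24.7 CPM in WT mice (-0.61 ± 0.29, adjusted p = 0.493), and -0.11 ± 0.28 without them. Peg13, a noncoding RNA within the Trappc9 gene, had 113 ± 15.7 CPM in BERKO mice and 117 ± 31.9 CPM in WT mice. This sum joins features that went opposite ways, none past the edgeR threshold. The feature with 59.3% of its reads had 51.1 CPM in BERKO mice and 79.7 CPM in WT mice (-0.64 ± 0.27, adjusted p = 0.359). Another with 22.4% had 35.2 CPM in BERKO mice and 23.4 CPM in WT mice (0.59 ± 0.37, adjusted p = 0.552). The summed Peg13 level in the right biopsies of WT replicates 1 and 3, 43.2 and 113 CPM, lay within the 37.9 to 186 CPM of the other 20. Of 15 imprinted genes listed, 5 were in the data and 4 were tested: 0 higher and 4 lower in BERKO mice, 0 past the threshold, with a median of -1.32 beside -0.01 over all rows. Without the right biopsies of WT replicates 1 and 3 the median of the 4 was -0.18, and scaled to the spike-ins 1 of the 4 was higher and 3 were lower.

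Within the Meg3 locus, 2 features carried most of the reads and both were high in the same 2 libraries. The leading first-exon feature (mm9, chromosome 12, position 110779209, plus strand) held 53.8% of the Meg3 reads, with 2014 and 2094 CPM before TMM scaling in the right biopsies of WT replicates 1 and 3 and 26.0 to 176 in the other 20 biopsies. A feature in a later exon (position 110799657) held 24.6%, with 813 and 829 CPM before TMM scaling in these 2 and 27.8 to 178 in the others. Kcnq1ot1 had no such leading start: its 682 reads were spread over 28 features, and the highest held 11.7%. The first of 2 RefSeq promoters of Meg3 is printed from 250 bases before to 50 after its annotated start (GRCm38.p6, chr12:109540746-109541045, plus strand). It is shown because the first-exon start of Meg3 separates the 2 libraries from the others. CCAAT and TATAAA matches of either strand are in capitals, and the second Meg3 promoter, not shown, holds no such match. The Malat1 promoter (chr19:5802623-5802922, minus strand) is shown beside it as that of the most abundant long noncoding RNA. It holds no match to TATAAA, to CCAAT or to the GC box GGGCGG.
Meg3: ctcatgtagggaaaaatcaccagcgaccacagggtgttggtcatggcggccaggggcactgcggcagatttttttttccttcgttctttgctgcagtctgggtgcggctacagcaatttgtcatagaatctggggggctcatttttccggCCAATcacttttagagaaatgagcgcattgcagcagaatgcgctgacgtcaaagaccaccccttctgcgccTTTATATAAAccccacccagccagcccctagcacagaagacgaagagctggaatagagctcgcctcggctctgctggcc
Malat1: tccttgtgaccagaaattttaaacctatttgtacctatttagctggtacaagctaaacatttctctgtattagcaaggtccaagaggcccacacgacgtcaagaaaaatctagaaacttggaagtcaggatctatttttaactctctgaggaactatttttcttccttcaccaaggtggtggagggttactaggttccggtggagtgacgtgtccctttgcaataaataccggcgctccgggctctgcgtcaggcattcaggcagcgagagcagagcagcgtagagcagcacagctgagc

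**Figure D4:**
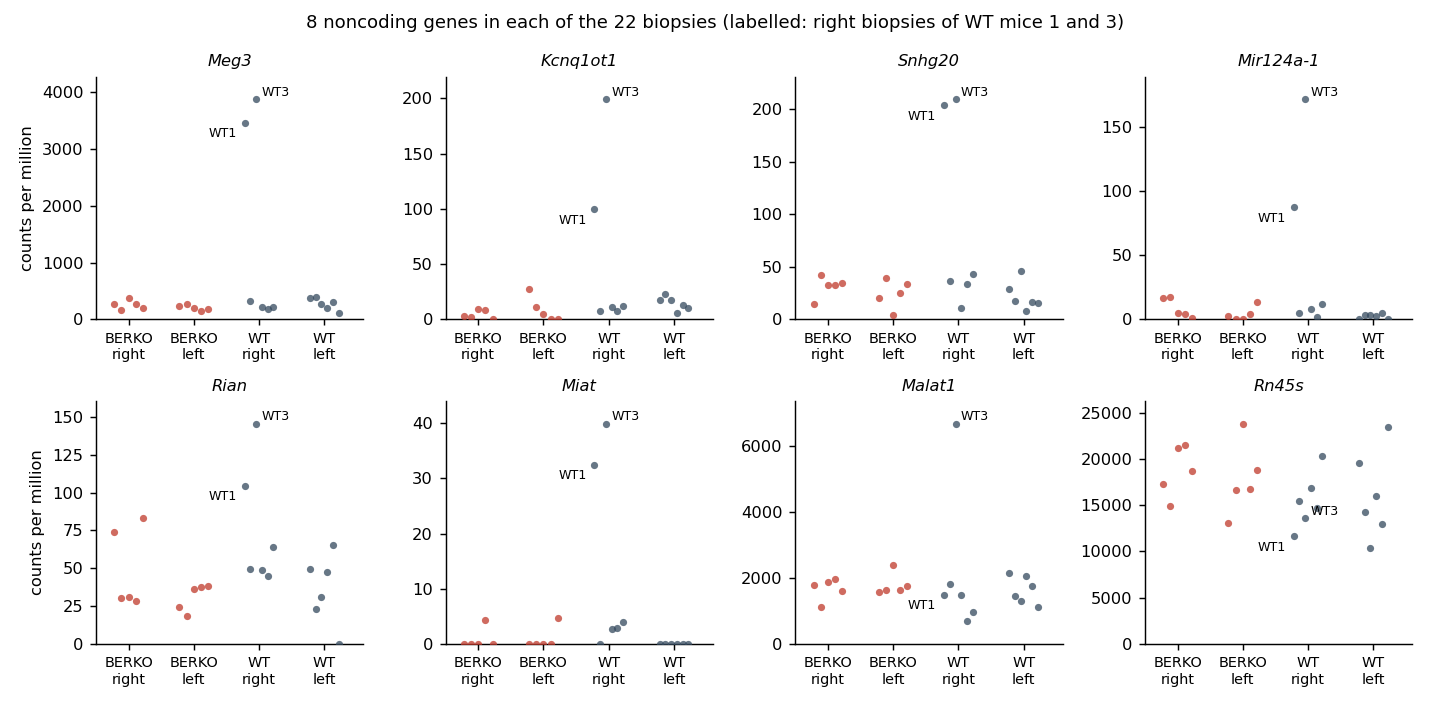
Level in CPM of 8 noncoding genes in each of the 22 biopsies, split by genotype and side, BERKO in red and WT in dark. The right biopsies of WT replicates 1 and 3, labelled, lie above the other 20 for Meg3, Kcnq1ot1, Snhg20, Mir124a-1, Rian and Miat, and within or near their range for Rn45s.

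The extent of this split was counted with a rule that names no library, set after the split had been seen. Of 290 noncoding genes with at least 10 reads in each of their 2 highest biopsies, 15 had both of these more than 3 times above the third. For 12 of the 15 the 2 biopsies were the right ones of WT replicates 1 and 3. Of 9503 other gene rows, 81 met the same condition, 18 of them with this pair. These 2 libraries were also the deepest, at 2018833 and 1655813 reads, so they reach 10 reads at a lower CPM than any other. Both counts therefore favour this pair, to an extent that was not tested. Besides Meg3, Snhg20, Kcnq1ot1 and Miat, the 12 included genes picked here after their values were seen. Mir124a-1 had 87.4 and 172 CPM in the 2 libraries, against 0 to 17.8 CPM in the others. Ipw, from the Prader-Willi imprinted region, had 49.5 and 108 CPM, against 15.2 CPM or less. Among 177 noncoding genes tested across biopsies, the right biopsy of WT replicate 3 was the highest library for 36 (20.3%), against 6.36% of the other rows, and every other library for 1 to 13.

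Most of the tested small nucleolar RNA host genes had a negative difference, as did 4608 of 9053 rows in all, and 0 passed the test. Of 21 genes listed, 15 were in the data and 11 were tested, 2 with a positive and 9 with a negative difference, and their median was -0.33 beside -0.01 over all rows. Without the right biopsies of WT replicates 1 and 3, 4 of the 11 were higher and 7 lower, at a median of -0.04, and scaled to the spike-ins 3 were higher and 8 lower, at a median of -0.14. Snhg8;Snora24 had 87.7, 76.5, 92.0, 79.7 and 88.7 CPM in BERKO mice, against a lowest of 75.5, a median of 109 and a highest of 150 CPM in WT mice (-0.39 ± 0.19, adjusted p = 0.493). The 5 BERKO values lay within the WT range, near its low end, and the difference without the right biopsies of WT replicates 1 and 3 was -0.09 ± 0.20. Gas5, a host gene whose RNA is short-lived while ribosomes read it, had 8.01 ± 3.13 CPM in BERKO mice and 21.9 ± 20.1 CPM in WT mice (-1.46 ± 0.54, adjusted p = 0.366), with 60.4 CPM in WT replicate 1, and -0.59 ± 0.56 without the 2 biopsies. Snhg4 had 42.7 ± 8.73 CPM in BERKO mice and 53.4 ± 11.5 CPM in WT mice, and Snhg6 80.3 ± 23.2 CPM in BERKO mice and 81.7 ± 30.3 CPM in WT mice. Snhg20 had 29.4 ± 9.20 CPM in BERKO mice and 65.4 ± 64.4 CPM in WT mice, where WT replicates 1 and 3 stood at 157 and 138 CPM and the other 4 at 9.90 to 32.3 CPM. Its difference of -1.17 ± 0.70 turned to 0.06 ± 0.35 without the right biopsies of WT replicates 1 and 3.

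Of the tested noncoding genes known from neural tissue, only Pantr1 had an unadjusted p under 0.05 in the edgeR test. Of 24 listed, 12 were in the data and 5 were tested, all 5 with a positive difference, a median of 0.18, and 0 past the threshold. Over all rows, 4445 of 9053 differences were positive and the median was -0.01. Without the right biopsies of WT replicates 1 and 3 the list's median was 0.32 beside 0.01 over all rows, and scaled to the spike-ins, which moved all rows up, it was 0.37 beside 0.19. Pantr1, transcribed near the neuronal transcription factor gene Pou3f3, had 75.4, 103, 136, 90.3 and 95 CPM in BERKO mice, against a lowest of 27.9, a median of 61.0 and a highest of 116 CPM in WT mice. Its groups overlapped (0.61 ± 0.26, adjusted p = 0.427), and the difference without the right biopsies of WT replicates 1 and 3 was 0.46 ± 0.22. 1700020I14Rik had 66.8 ± 16.6 CPM in BERKO mice and 58.7 ± 21.2 CPM in WT mice. 2810468N07Rik had 38.1 ± 12.1 CPM in BERKO mice and 38.1 ± 16.1 CPM in WT mice. Sox2ot, the transcript that overlaps the stem cell factor gene Sox2, had 18.8 ± 10.6 CPM in BERKO mice and 15.3 ± 4.48 CPM in WT mice.

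Nuclear body and X-inactivation RNAs other than Malat1 were too rare to test. Firre, which shapes nuclear architecture around its X-linked locus, had 0 reads in the 5 BERKO mice and 101 in the 6 WT mice, of which replicates 1 and 3 had 20.4 and 10.5 CPM and the others 0 to 4.72 CPM. A count of 0 allows up to 3 reads over the BERKO mice. Neat1, the paraspeckle RNA, had 3.29 ± 5.99 CPM in BERKO mice and 10.1 ± 14.4 CPM in WT mice, and Miat 1.02 ± 1.47 CPM in BERKO mice and 8.67 ± 11.4 CPM in WT mice. Ftx, a regulator of Xist, had 3.83 ± 3.42 CPM in BERKO mice and 14.6 ± 20.2 CPM in WT mice, with 35.4 and 45.3 CPM in WT replicates 1 and 3. Jpx had 32 reads in all. Of 26 RNA polymerase III and spliceosomal RNA genes listed, 3 were in the data (Vaultrc5, Rnu11 and Rpph1), with 23 reads together.

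Reads at microRNA genes were few. Of 88 microRNA genes 72 had reads, 7363 in all, and 10 were tested, 4 with a positive and 6 with a negative difference, at a median of -0.21 beside -0.01 over all rows. A feature of such a gene counts 5′ ends at its locus, and mature microRNAs were not measured as such. The 4 shown were picked after their values were seen, Mir682 and Mir219a-2 for their read counts, Mir770 for its place in the Meg3 locus and Mir125b-1 for its p, and the seed, bases 2 to 8, is in capitals (RefSeq, GRCm38.p6). The 4 seeds all differ.
miR-682 (chr13:75645119-75645139): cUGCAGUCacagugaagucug
miR-219a-5p (chr2:29845689-29845709): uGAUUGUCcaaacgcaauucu
miR-770-5p (chr12:109563710-109563731): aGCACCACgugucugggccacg
miR-125b-5p (chr9:41581940-41581961): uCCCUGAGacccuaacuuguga
Mir682 had the most reads, 1531, at 85.3 ± 21.6 CPM in BERKO mice and 79.7 ± 16.6 CPM in WT mice. Mir219a-2, known from oligodendrocytes, had 2.53 to 13.9 CPM in BERKO mice, against 178 CPM in WT replicate 3 and 2.75 to 20.0 CPM in the other 5 WT mice. Mir770, which lies within the Meg3 locus, had 0 to 3.08 CPM in BERKO mice, against 33.6 and 120 CPM in WT replicates 1 and 3 and 0.550 to 13.1 CPM in the other 4 WT mice. Among 6 microRNA host genes in the data, of 15 listed, Mir22hg was the only one tested, at 29.7 ± 9.94 CPM in BERKO mice and 31.8 ± 9.51 CPM in WT mice. Mir124a-1hg, A330023F24Rik and Mir99ahg had 74, 53 and 32 reads.

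Many noncoding starts lay head to head with a coding gene. An opposite-strand 5′ UTR or upstream feature of a coding gene lay within 1000 bases of 168 of 705 noncoding genes with a first-exon or upstream start in use (23.8%), and of 42 of the 202 tested ones (20.8%). The same held for 1291 of 11023 coding genes (11.7%). Cep83os and Cep83 were 416 bases apart, 4632427E13Rik and the Rab30 start 245, Mkln1os and Mkln1 90, and 0610012G03Rik and Ncbp2 107 bases. All distances are between positions in the deposited annotation (mm9), and the last 2 pairs were chosen after their values were seen.

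At the level of features, 1 noncoding start passed the test. It was the single first-exon feature of Gm15421 (mm9, chromosome 5, position 22034532, minus strand), with 6.87 ± 2.58 CPM in BERKO mice and 29.1 ± 9.68 CPM in WT mice (-2.06 ± 0.40, adjusted p = 0.0306). That is 1 of 207 noncoding features tested, where 15 of 13128 features in all were called (0.114%). The call ended without WT replicate 1, 2, 3 or 6 or any of the 5 BERKO mice, with 0 noncoding features called in each case.

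Split by side, no noncoding gene passed the edgeR test in either hemisphere. On the right, 152 were tested, 14 had an unadjusted p under 0.05, and 5 of all 7702 rows were called (0.0649%). The share of all rows at this unadjusted cutoff was not counted on either side, so the noncoding counts at it cannot be set against a background. Gm15421 had 0, 10.1, 5.91, 4.22 and 15.2 CPM in right BERKO biopsies, against a lowest of 18.9 and a highest of 41.3 CPM in right WT biopsies (-2.03 ± 0.57, adjusted p = 0.281), and DESeq2 called it. Gm19757 (-2.69 ± 0.91) and Gas5 (-1.97 ± 0.68) followed, both at an adjusted p of 0.451, and both were too low to test without the right biopsies of WT replicates 1 and 3. On the left, 107 were tested, 2 had an unadjusted p under 0.05, DESeq2 called 0, and 0 of all 6620 rows were called (0%). Pantr1 (1.12 ± 0.38, adjusted p = 0.615), Rps4l (-0.98 ± 0.42, adjusted p = 0.698) and 2010204K13Rik (-0.96 ± 0.47, adjusted p = 0.732) had the smallest p there.

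Right against left within a mouse, 0 of 177 noncoding genes passed the edgeR test with the mouse as a block, as for all 8312 rows (0%), and 18 had an unadjusted p under 0.05. The share of all rows at that unadjusted cutoff was not counted for side or for the interaction, so these counts have no background. Gm6654, the Rps26 copy, was lower on the right in 9 of 11 mice (-0.46 ± 0.12 right over left, adjusted p = 0.363), and DESeq2 called it. Its difference was -0.36 ± 0.12 without WT replicates 1 and 3. Snhg20 was higher on the right in 10 of 11 mice (1.08 ± 0.31, adjusted p = 0.540), with 0.69 ± 0.40 (adjusted p = 0.999) without WT replicates 1 and 3. Gm11549 was also higher on the right in 10 of 11 mice (1.32 ± 0.42, adjusted p = 0.654). Mrgpra6 (1.15 ± 0.40) and 2900055J20Rik (0.58 ± 0.21) were higher on the right in 9 of 11 mice, both at an adjusted p of 0.696. Without WT replicates 1 and 3 the Mrgpra6 difference was 0.63 ± 0.50. The genotype effect differed between the sides for 0 of the 177 in edgeR and in DESeq2, with 3 at an unadjusted p under 0.05: 3110039I08Rik (-2.73 ± 1.20), Snhg8;Snora24 (-0.82 ± 0.40) and Gm6654 (0.47 ± 0.23), all at an adjusted p of 0.998. Without WT replicates 1 and 3, Snhg8;Snora24 was at -0.53 ± 0.45 and 3110039I08Rik was too low to test.

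The noncoding share of endogenous reads did not differ between genotypes beyond the spread between mice. It was 2.83 ± 0.29% in BERKO mice and 2.75 ± 0.27% in WT mice (SD, n = 5 and n = 6; two-sided exact permutation test over 462 splits, p = 0.639, adjusted over 4 shares 0.688), where the smallest p the design allows is 0.00216. First exons had 2.44 ± 0.28% in BERKO mice and 2.27 ± 0.22% in WT mice (exact permutation p = 0.273, adjusted 0.545), and upstream regions 0.345 ± 0.024% in BERKO mice and 0.395 ± 0.145% in WT mice (exact permutation p = 0.688, adjusted 0.688). Other exons had 0.0433 ± 0.0065% in BERKO mice and 0.0803 ± 0.0521% in WT mice (exact permutation p = 0.160, adjusted 0.545). Without the right biopsies of WT replicates 1 and 3 the WT other-exon mean was 0.0472%. Without Rn45s the noncoding share was 1.07% to 1.15% in BERKO mice and 1.05% to 1.87% in WT mice, where only replicates 1 and 3, at 1.58% and 1.87%, lay above the BERKO range. Right biopsies had 2.86 ± 0.41% and left biopsies 2.68 ± 0.37% (n = 11 mice, exact sign-flip permutation p = 0.407), with the right higher in 5 of 11 mice.

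**Figure D5:**
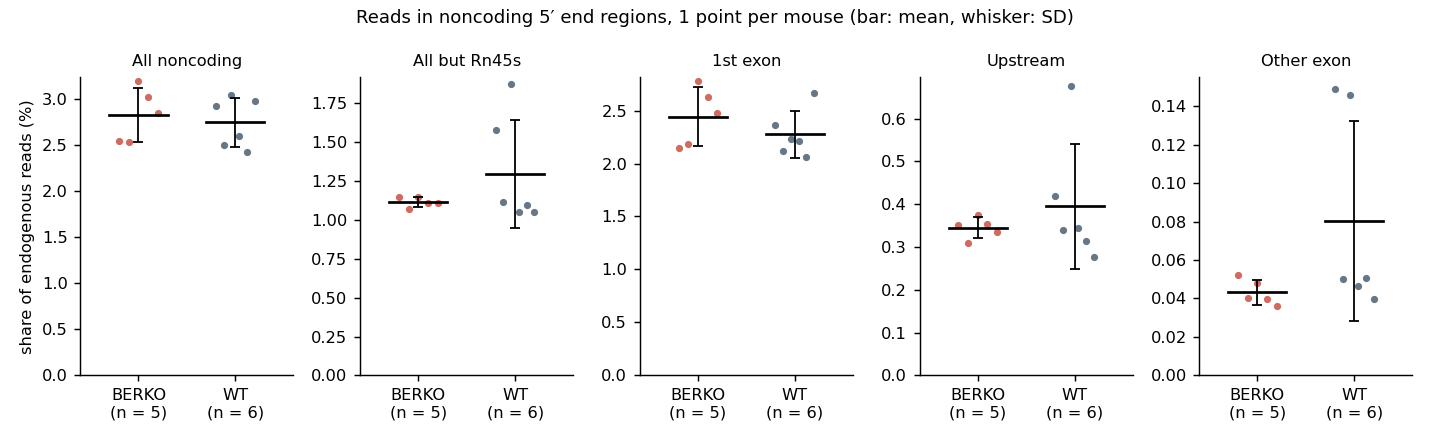
Share of endogenous reads in noncoding 5′ end regions, in percent, with 1 point per mouse, a bar for the mean and a whisker for the SD, for BERKO (red, n = 5) and WT (dark, n = 6). In every panel the genotypes overlap, and in the other-exon panel 2 WT mice lie at 0.146% and 0.149% and the rest at 0.0398% to 0.0506%.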

How the data were processed

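RNA 5′ ends were read by STRT in 22 M1 cortex biopsies. The deposited table holds read counts as whole numbers for each feature and lane, with a position, strand and class for each feature. Per the submitters' processing notes, the build was mm9 and the tools Bowtie and TopHat2 2.0.12. How features were drawn and how reads with several matches were handled is not stated in the labels or headers. A table of spike-in ratios was not used. PCR reads are not independent molecules, so floors cover counting error only.

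Column names give side and genotype, and their last digit was read as the mouse number that the labels give. The values do not settle this reading: after the group means were taken off, the 2 sides of a mouse had correlations of -0.127 to 0.361. The number of replicates, the summing over sides and the block by mouse all depend on it. Lanes were summed. The 38 spike-in features, 19 features on spike-in sequences and 37 on a ribosomal reference were left out of the tests. The noncoding features of a symbol were summed to 1 row and its other features to another, and 14 features with several symbols form 9 rows of their own. Levels are counts scaled to the library total after TMM over all gene rows (CPM), not divided by length since only 5′ ends are counted.

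The mouse was the replicate, with both sides summed for genotype. Each side, the side within a mouse and the interaction were tested on biopsies, the last pair with the mouse as a block. The test was edgeR 4.0.16 (quasi-likelihood, robust, default low-count filter, two-sided, Benjamini-Hochberg over all rows, threshold 0.05) in R 4.3.3, with limma 3.58.1 and DESeq2 1.42.0 as alternatives, and was tested on simulated data. The common biological coefficient of variation was 36.7%. The SE is the log2 difference over the square root of F. Shares were compared by exact permutation. For genotype, p-values measure the spread between these mice. For side and the interaction they measure the spread of the right-left differences of these mice.

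Members, lists and rules were chosen with earlier results of these data known. Named are the 10 genotype genes of smallest p with a mean of 20 or more counts in the higher genotype, the 15 of highest mean level, up to 4 members of each list by level, the 5 smallest p for side and the 3 smallest for the interaction and each side, and the called feature. Gene types and promoters come from RefSeq (GRCm38.p6; 904 of 908 genes matched) and transcripts from GENCODE (GRCm38), used for names and sequences only, never joined by coordinates.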

Additional observations from a re-analysis of the deposited data

Results flagged for a closer look

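A single mouse stood far from the rest of its genotype for 10 of the 98 groups examined, and 3 of the 10 were WT replicate 3. The rule's nominal rate of about 1 in 20 is for independent, normally distributed values. The groups share mice and CPM values are skewed, so the 10 cannot be set against that rate. In BERKO mice, BC018473 was at 29.7 CPM in replicate 5, where the next value was 17.3 CPM. Snhg6 was at 40.6 CPM in BERKO replicate 6, below the next value of 83.5 CPM. Neat1 was at 13.9 CPM in BERKO replicate 6, where the next value was 1.44 CPM. Jpx and A330023F24Rik were each at 1.54 CPM in BERKO replicate 2 and at 0 in the other BERKO mice, a pattern that the rule always flags. In WT mice, Gas5 was at 60.4 CPM in replicate 1, where the next value was 21.1 CPM. Malat1 was at 4327 CPM in WT replicate 3, where the next value was 1721 CPM, and Neat1 was at 38.7 CPM in the same mouse, where the next value was 9.29 CPM. The noncoding upstream share was 0.676% in WT replicate 3 and at most 0.419% in the other WT mice. 1500011B03Rik was at 144.0 CPM in WT replicate 6, below the next value of 201 CPM.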

How the results depend on the processing

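At gene level the count of noncoding calls was 1 (Gm15421) in place of 0 with no low-count filter, a stricter filter, all features of a symbol, or first-exon and upstream features only, and 0 to 1 when 1 mouse was left out. Over its alternatives Gm15421 ranged from -2.18 to -1.70, at an adjusted p of 0.0302 to 0.25. At feature level the count of 1 became 0 with spike-in scaling, limma-voom, the replicate block, lane 1 only, without the 3 WT libraries that stood apart in an earlier account of these data, and without the right biopsies of WT replicates 1 and 3, an alternative chosen after seeing the data. It was 0 to 1 when 1 mouse was left out, 1 with DESeq2 and 5 with no filter. DESeq2 called 1 noncoding gene on the right and 1 for side, where edgeR called 0.

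The log2 difference of the noncoding share turned to -0.22 without the 3 genes with the most reads and to -0.17 without Rn45s, reached 0.30 at most under the others, and was -0.0040 to 0.081 when 1 mouse was left out, the lowest without BERKO replicate 4. The first-exon share turned to -0.19 and -0.14 under the same 2 settings. The upstream share turned to 0.12 over spike-in reads, 0.13 in left biopsies alone, 0.10 without the right biopsies of WT replicates 1 and 3, and 0.036 without WT replicate 3. The cause was not tested. None of these differences passed the permutation test.

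Same-numbered BERKO and WT mice correlated by -0.035 to 0.060 in their deviations. Right and left biopsies of a mouse had -0.127 to 0.361 by a like measure. Such a measure therefore cannot decide whether the numbers pair the mice. The replicate block gave 0 noncoding calls for genotype over all and on each side, and shares of 0.061 (all), 0.11 (first exon), -0.10 (upstream) and -0.45 (other exon) on the log2 scale. Without the mouse block, side and interaction had 0 calls. Depth limits the rest: 698 of the 908 genes were too low to test.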

Other observations

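The tested noncoding genes were also grouped by RefSeq gene type and by name. The 31 tested genes that RefSeq lists as protein coding had 18 positive and 13 negative differences between BERKO and WT mice, with a median log2 difference of 0.06. The 140 tested long noncoding RNA genes had 54 positive and 86 negative differences with a median of -0.16, and the 21 tested transcribed pseudogenes 7 and 14 with a median of -0.22. Over all rows, 4445 differences were positive and 4608 negative, with a median of -0.01. By name, 29 tested genes of the Gm series had a median of 0.15, 89 Rik clones a median of -0.13 and 12 antisense genes named with the suffix os a median of -0.08. None of these differences between groups was tested, and 0 genes in any of them passed the edgeR threshold. Of the 30 genes with an unadjusted p under 0.05, the 5 with a positive difference were Gm1976, Pantr1, 2900097C17Rik, 4933431E20Rik and 2210408F21Rik. Gm1976 had 32.4 ± 13.9 CPM in BERKO mice and 17.7 ± 5.85 CPM in WT mice (0.86 ± 0.35, adjusted p = 0.412), and 0.95 ± 0.36 without the right biopsies of WT replicates 1 and 3. These 5 genes were singled out after their values were seen.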
